A study of Mus musculus with 3 samples.

Results

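The tripartite motif (TRIM) family is a large group of proteins, most of which are RING-type ubiquitin ligases. Its members were taken as the genes whose symbol is Trim followed by a number and at most 1 letter from a to e, with at least 1 transcript annotated as protein coding. This gave 68 genes, among 21901 genes with a protein-coding transcript and 55450 genes in all. TRIM proteins known under other symbols, such as Pml and Mefv, were therefore not members. Polyadenylated RNA was sequenced from bone-marrow-derived macrophages of the inbred mouse strain C57BL/6J. The cells, by their labels, met lipid A at 100 ng/ml for 12 h, spent 12 h in washout, and met lipid A at 100 ng/ml again for 180 min. Lipid A is the part of bacterial lipopolysaccharide that Toll-like receptor 4 recognises. Other label fields call the agent lipoprotein A, of type protein, and this conflict cannot be settled from the labels. All 3 samples form 1 group and carry 1 donor record, so the spread between replicates may be technical. Cells without lipid A, or after a single exposure, were not analysed here. The values therefore describe levels in twice-exposed cells and not a response.

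A typical TRIM protein has a RING finger, which brings in a ubiquitin-loaded E2 enzyme, then B-box domains and a coiled coil through which the protein pairs. The C-terminal part differs between members and binds the target, often through a PRY-SPRY domain. Several TRIM genes are induced by interferon, and TRIM proteins act on RNA and DNA sensing, on NF-kappaB signalling and directly on viruses. In rodents the chromosome 7 region that holds Trim5 has expanded into several close copies of Trim30, Trim12 and Trim34. In primates the TRIM5 protein of the matching region is known for binding retroviral capsids.

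Total expected counts per library lay between 23418690 and 37728915. Where nothing was counted, up to 3 counts remain possible, or 0.0796 to 0.128 CPM. This floor covers counting error only. All 8 macrophage markers examined, among them Adgre1, Csf1r and Lyz2, had at least 1 TPM in all replicates, with means of 69.8 to 10782 TPM. None of the markers of T cells (4), B cells (3), erythroid cells (4), muscle (4), epithelium (4) and neurons (3) reached that level. Among 5 neutrophil markers, S100a8 and S100a9 reached it, and the summed TPM of the 5 was 11.2, 97.5 and 10.6 in replicates 1, 2 and 3. The neutrophil marker Ly6g was at 0 in every replicate, and Mpo and Elane averaged 0.12 and 0.04 TPM.

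Levels of the family ran from 0 to 269 TPM on average, and a few members held most of its RNA. Of 68 members, 33 had at least 1 TPM in all 3 replicates and are called expressed below. That rule was met by 44.5% of all protein-coding genes, so the count of members was close to the background. A mean of at least 100 TPM was reached by 5 members, and by 5.89% of protein-coding genes. The count was 0 in every replicate for 13 members, against 34.8% of protein-coding genes. Expressed members had a median of 17.5 TPM, and expressed protein-coding genes one of 18.1 TPM. Over all members the median of mean log2(TPM + 1) was 1.11 ± 0.30 (SD of the replicate medians, n = 3), and over all protein-coding genes it was 0.43. TPM divides reads by transcript length before scaling to the library, so levels of different genes can be set side by side on it. In RNA from whole cultures, a gene at a low level in every cell and a gene on in few cells cannot be told apart. The summed TPM of the family was 1481, 1417 and 1402 in replicates 1, 2 and 3. The 5 most abundant members held 51.7% ± 1.74 of that sum, the top 10 held 77.2% ± 1.13 and the top 20 held 94.3% ± 0.45 (SD, n = 3).

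**Figure D1:**
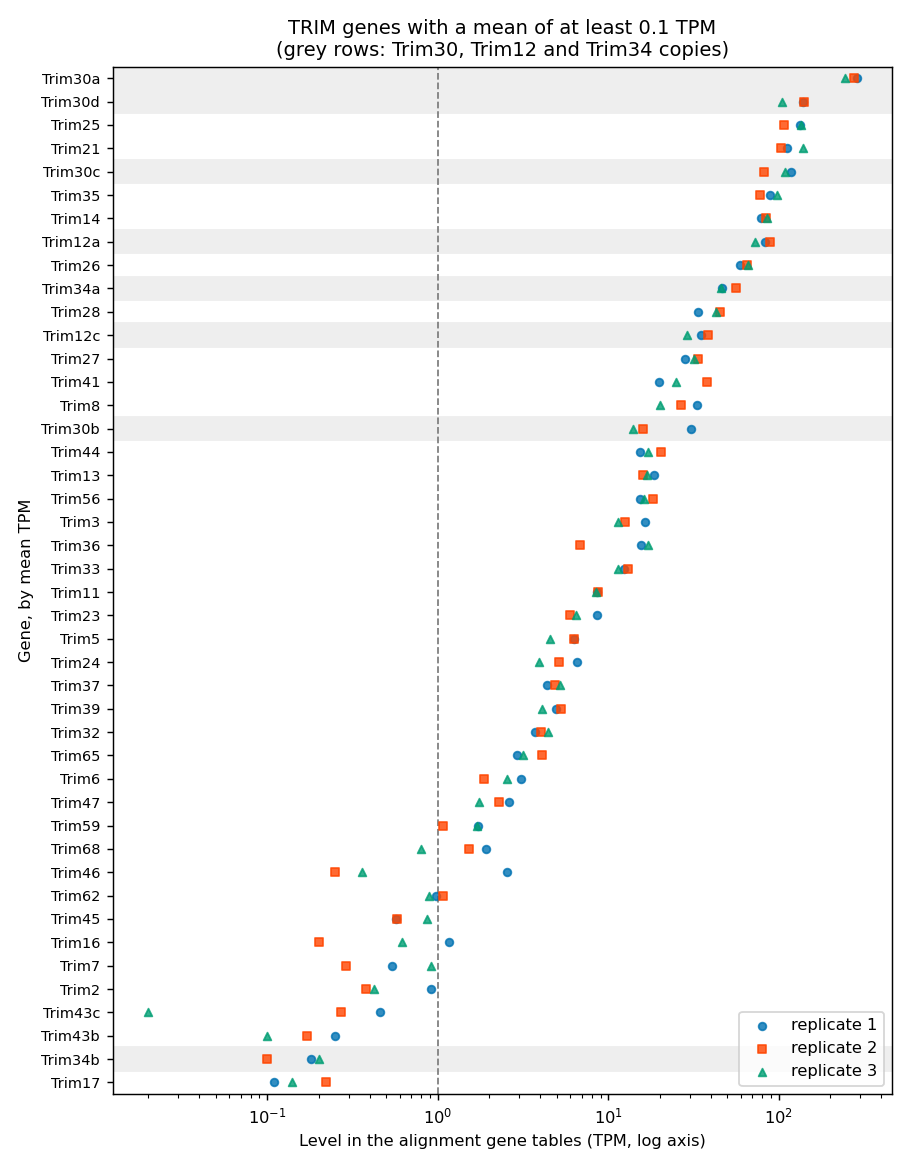
TPM of each replicate (log axis) for the 44 TRIM genes with a mean of at least 0.1 TPM, ordered from the most to the least abundant, with grey rows for the Trim30, Trim12 and Trim34 copies and a dashed line at 1 TPM. Trim30a stands highest at 245 to 287 TPM, and 7 of the 8 copies lie above 10 TPM in every replicate, whereas Trim34b lies at 0.10 to 0.20 TPM.

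The largest block of TRIM RNA came from 1 stretch of chromosome 7. Per the GENCODE M21 annotation on mm10, chr7:104218793-104535361 runs over 317 kb from Trim6 to the pseudogene Trim30e-ps1 and holds 20 genes. All 10 of its protein-coding genes are members. The 8 Trim30, Trim12 and Trim34 copies held 49.8%, 49.1% and 44.2% of the family's summed TPM in replicates 1, 2 and 3. Replicate 3 was the lowest. The 4 Trim30 copies alone held 36.1% ± 2.53 (SD, n = 3).

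**Figure D2:**
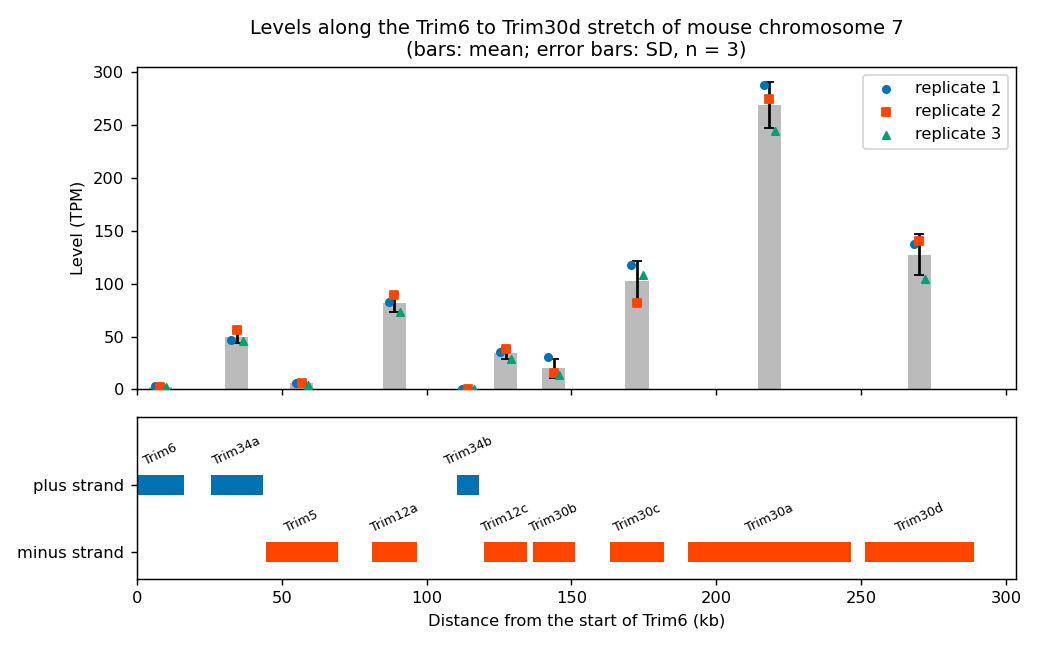
Upper panel: mean TPM (bars, from 0), SD (error bars, n = 3) and each replicate (points) of the 10 protein-coding genes, at the middle of each gene. Lower panel: extent and strand of the same genes by distance from the start of Trim6 in kb. The Trim30 copies lie next to each other on the minus strand, with Trim30a, the most abundant, between Trim30c and Trim30d.

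Trim30a, which in mouse macrophages is known to promote degradation of TAB2 and TAB3 and so to limit NF-kappaB signalling, was the most abundant member. It lies at chr7:104409025-104465193 on the minus strand (ENSMUSG00000030921.17). It had 287, 274 and 245 TPM in replicates 1, 2 and 3. Trim30d, its closest relative by coding sequence, followed at 138, 140 and 105 TPM. The lowest replicate of Trim30a lay above the highest of Trim30d, and the ratio of Trim30a to Trim30d was 2.13 ± 0.19 (SD, n = 3). Trim30c had 118, 81.6 and 109 TPM. Its range overlapped that of Trim30d, with a ratio of Trim30c to Trim30d of 0.85, 0.58 and 1.04. The order of Trim30c and Trim30d was thus not resolved in TPM. In expected counts, which are not divided by length, the ratio was 0.48, 0.33 and 0.59. The only annotated transcript of Trim30c is 1716 bases long, against 3282 in the leading transcript of Trim30d. Trim30b had 30.5, 15.9 and 13.9 TPM. Replicate 1 was the high one, and Trim30b stayed below the other Trim30 copies in every replicate. Trim30e-ps1, an annotated pseudogene, had 1 expected count in replicate 1 and 0 in the others.

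These copies are alike enough that reads can fit more than 1 of them. Over the longest annotated complete coding sequences, Trim30a and Trim30d were identical at 90.2% of 1488 aligned bases, Trim30a and Trim30c at 82.9% of 1488, and Trim30a and Trim30b at 87.0% of 606. The 90 bases that follow are shown because they begin the coding sequence, hold the first cysteine codons of the RING finger and show how the copies can be told apart. Capitals mark bases that differ from Trim30a at the aligned position. The sequences come from GENCODE M21 transcripts, run 5′ to 3′ on the minus strand and each lie in 1 exon, at chr7:104435912-104436001 for Trim30a, chr7:104366090-104366179 for Trim30b, chr7:104390494-104390583 for Trim30c and chr7:104487906-104487995 for Trim30d. Trim30c is shown from its coding base 4, which aligns with base 1 of Trim30a.
Trim30a: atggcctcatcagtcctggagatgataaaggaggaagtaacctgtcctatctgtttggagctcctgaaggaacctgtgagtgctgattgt
Trim30b: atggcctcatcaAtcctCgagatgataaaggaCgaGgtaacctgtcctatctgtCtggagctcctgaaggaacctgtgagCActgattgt
Trim30c: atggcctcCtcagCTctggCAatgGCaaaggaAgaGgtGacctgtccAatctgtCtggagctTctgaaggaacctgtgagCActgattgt
Trim30d: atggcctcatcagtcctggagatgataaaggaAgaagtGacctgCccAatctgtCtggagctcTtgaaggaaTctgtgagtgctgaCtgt
Within these 90 bases Trim30b differed from Trim30a at 7 positions, Trim30c at 15 and Trim30d at 8. Their coding lengths also differ. The longest annotated sequence has 496 codons in Trim30a, 203 in Trim30b, 513 in Trim30c and 497 in Trim30d.

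Trim12a and Trim12c are rodent relatives of Trim5. Trim12a (chr7:104299894-104315466, minus strand) had 82.9, 89.3 and 72.8 TPM in replicates 1, 2 and 3. Trim12c (chr7:104338754-104353362, minus strand) had 35.0, 38.5 and 28.8 TPM. Every replicate of Trim12a lay above every replicate of Trim12c, with a ratio of 2.40 ± 0.11 (SD, n = 3). That order holds per transcript length only. In expected counts, which are not divided by length, Trim12a stood at 0.77 ± 0.03 of Trim12c, and the leading transcript of Trim12a is 1486 bases long against 3740 in Trim12c. Trim5 (chr7:104263386-104288094, minus strand) had 6.26, 6.28 and 4.57 TPM. The ratio of Trim12c to Trim5 was 6.01 ± 0.37, although their coding sequences were identical at 96.6% of 1491 aligned bases.

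The coding sequence of Trim12a was identical to that of Trim12c at 96.4% and to that of Trim5 at 97.1% of 891 aligned bases. The longest annotated coding sequence of Trim12a has 297 codons, and those of Trim12c and Trim5 have 497 each. The first 90 coding bases of Trim12a (chr7:104307242-104307331) and of Trim12c (chr7:104348258-104348347), both on the minus strand, are given to show how close the copies are. Capitals mark differences from Trim12a.
Trim12a: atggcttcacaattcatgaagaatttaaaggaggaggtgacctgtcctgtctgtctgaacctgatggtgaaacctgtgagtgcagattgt
Trim12c: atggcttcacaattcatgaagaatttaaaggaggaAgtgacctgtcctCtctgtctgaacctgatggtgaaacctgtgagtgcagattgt
Trim12c differed at 2 of 90 positions. The matching stretch of Trim5 (chr7:104279643-104279732) differed from Trim12a at 0.

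Trim34a and Trim34b had nearly the same coding sequence and very unequal levels. Trim34a (chr7:104244457-104262234, plus strand) had 46.3, 55.9 and 45.7 TPM in replicates 1, 2 and 3. Trim34b (chr7:104329471-104336909, plus strand) had 0.18, 0.10 and 0.20 TPM, from 4.51, 3.30 and 6.54 expected counts. The level of Trim34b therefore rests on a handful of reads, which may also fit Trim34a, so they do not show that Trim34b RNA was present. Coding sequences of this pair were identical at 98.2% of 1451 aligned bases. The first 90 coding bases of Trim34a (chr7:104247731-104247820) and Trim34b (chr7:104329548-104329637) follow, both on the plus strand, with differences from Trim34a in capitals.
Trim34a: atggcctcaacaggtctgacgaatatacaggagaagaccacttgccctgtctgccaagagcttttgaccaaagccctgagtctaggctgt
Trim34b: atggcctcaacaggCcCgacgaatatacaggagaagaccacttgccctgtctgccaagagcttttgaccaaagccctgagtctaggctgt
Trim34b differed at 2 of 90 positions. Trim6, the plus-strand neighbour of Trim34a and known in human cells for making free ubiquitin chains that activate the kinase IKKε, had 3.09, 1.86 and 2.54 TPM.

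Whether reads can be assigned to 1 copy was described by the share of each gene's 31-base sequences, on either strand, that also occur in transcripts of other genes. The sequences were pooled over all annotated transcripts of a gene, retained-intron ones included. The median over the 68 members was 1.60%, with 17 members at 10% or more and 14 at 0%. These values were not computed for all genes. Trim34b shared 69.05%, all of it with Trim34a, so only 572 of its 31-base sequences were its own. Trim34a shared 68.5%, of which 48.7% of its total was shared with Trim34b and 21.4% with Gm47248, an antisense gene annotated within Trim34a. Trim5 shared 53.3% and Trim12c 48.1%, mostly with each other, and Trim12a shared 16.05%. The Trim30 copies had lower shares, at 11.9% for Trim30a, 11.9% for Trim30d, 5.69% for Trim30c and 4.60% for Trim30b. Trim12a has 5845 such sequences in all, while its leading transcript is 1486 bases long. Trim30b has 7591, while its longest coding sequence has 609 bases. The low shares of these genes thus do not show that their coding reads are easy to separate. The highest value in the family was 71.8% in Trim43c, a member of a trio that also holds Trim43a and Trim43b. Of its total, 50.2% was shared with Trim43b, 45.0% with Trim43a and 33.2% with 9330159M07Rik, an overlapping gene on the opposite strand. That gene had 191, 216 and 213 expected counts, and Trim43c had 11.6, 11 and 1. Whether these few reads came from Trim43c was not tested.

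The deposited tables held 2 quantifications of the same libraries, and the copies were compared between them. One set of tables was made directly from FASTQ files and the other from alignments. In the FASTQ-made tables Trim30a had 216, 266 and 263 TPM, against 287, 274 and 245 TPM in the alignment tables. FASTQ-made values were lower in replicates 1 and 2 and higher in replicate 3. The same drift was seen over all expressed protein-coding genes, whose median ratio of FASTQ-made to alignment TPM was 0.718, 0.880 and 0.982. On the log2 scale, with 0.1 TPM added to both values, the ratio averaged −0.12 ± 0.27 for Trim30a, 0.04 ± 0.28 for Trim30b, 0.01 ± 0.31 for Trim30c and −0.16 ± 0.28 for Trim30d (SD, n = 3). It averaged −0.17 ± 0.19 for Trim12a, −0.23 ± 0.27 for Trim12c and −0.20 ± 0.27 for Trim34a. Much of each SD is the drift that all genes shared. Relative to the median ratio of all expressed protein-coding genes in the same replicate, Trim30b stood at 0.27 ± 0.05, Trim30c at 0.24 ± 0.09, Trim30a at 0.11 ± 0.04 and Trim30d at 0.07 ± 0.05 (SD, n = 3). On this scale all 4 Trim30 copies were thus somewhat higher in the FASTQ-made tables, by more than 1 SD. As deposited, Trim30a and Trim30d averaged lower there. On the relative scale Trim12a stood at 0.057 ± 0.056, also past 1 SD, Trim12c at 0.00 ± 0.04 and Trim34a at 0.03 ± 0.04. A mean more than 1 SD from 0 on this scale was common, in 23 of 33 expressed members and 60.0% of expressed protein-coding genes, whose median size of the mean was 0.08.

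Trim34b had the largest difference of the 8 copies, as deposited and relative to the median of all genes. It had 0.44, 0.38 and 0.33 TPM in the FASTQ-made tables, against 0.18, 0.10 and 0.20 TPM in the alignment tables. The FASTQ-made value was higher in 3 of 3 replicates, by 0.92 ± 0.38 on the log2 scale and by 1.15 ± 0.51 relative to all genes (SD, n = 3). With 1 TPM added in place of 0.1 TPM, the difference was 0.26. Both quantifications placed Trim34b far below Trim34a, with a ratio of Trim34a to Trim34b of 116 ± 36.1 in the FASTQ-made tables and 348 ± 183 in the alignment tables. The order of the other pairs was also the same in both. Trim30a stood over Trim30d by 2.18 ± 0.16 in the FASTQ-made tables and 2.13 ± 0.19 in the alignment tables, and Trim12a over Trim12c by 2.49 ± 0.09 and 2.40 ± 0.11 in the same order of tables.

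**Figure D3:**
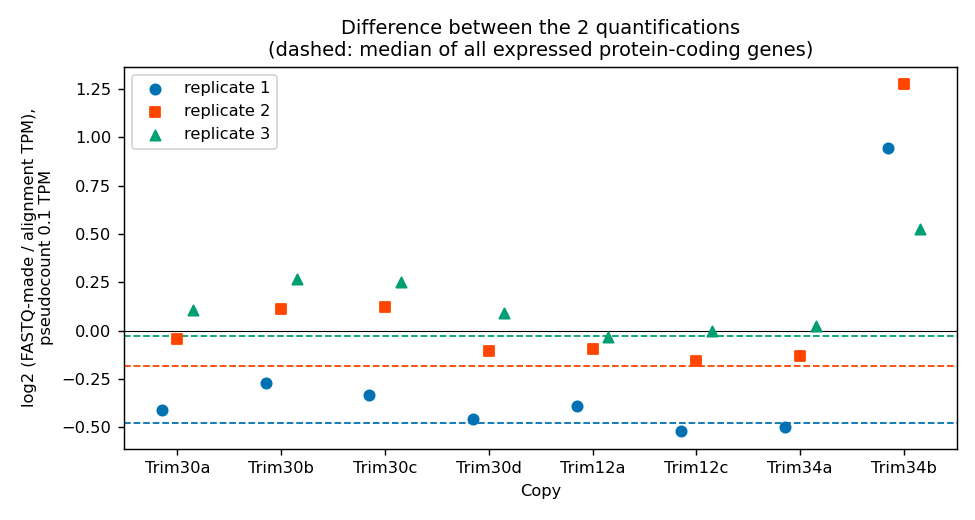
Log2 ratio of FASTQ-made to alignment TPM (pseudocount 0.1 TPM) of the 8 copies, 1 point per replicate, with a dashed line for the median of all expressed protein-coding genes in each replicate. The points of 7 copies lie between −0.52 and 0.27, and those of Trim34b lie above them at 0.53 to 1.28.

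Among members with a mean of at least 1 TPM in either quantification, none differed by 2-fold or more in all 3 replicates. Of the 36 members with a mean of at least 1 TPM in either, 0 were at least 2-fold higher in the FASTQ-made tables, against 0.986% of the protein-coding genes past the same filter, and 0 at least 2-fold lower, against 0.361%. Trim34b, with a mean under 1 TPM in both, was not among the 36. A single replicate set the largest difference of a member that was. Trim2, a ligase that acts on neurofilaments, had 10.1, 0.45 and 0.55 TPM in the FASTQ-made tables, against 0.91, 0.38 and 0.42 TPM in the alignment tables. In replicate 1 most of this, 9.87 TPM, lay in 1 retained-intron transcript, which had 0.03 TPM there in the alignment table. Trim52 had 1.26, 1.16 and 0.10 TPM in the FASTQ-made tables, all in the non-coding transcript Trim52-202, and 0 in every alignment table. Its log2 ratio, with 0.1 TPM added to both values, was 3.77, 3.66 and 1.03, past 2-fold in all 3 replicates. With a mean under 1 TPM in both quantifications, Trim52 was not among the 36 either. Both genes were named after their values were seen.

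Members with known roles in innate immunity were mostly expressed, 12 of 14, with a median of 21.8 TPM, against 44.5% of all protein-coding genes. The list was chosen with earlier results of these data known, so its count is a description only. Trim25, the ubiquitin ligase that acts with the RNA sensor RIG-I, had 133, 107 and 135 TPM in replicates 1, 2 and 3. Trim21, a cytosolic antibody receptor, had 112, 103 and 139 TPM. These genes had overlapping ranges, which also overlapped those of Trim30d and Trim30c. The order from the second to the fifth member was thus not resolved in TPM. Trim35 had 88.9, 77.3 and 97.0 TPM. Trim14, which binds the mitochondrial adaptor MAVS, had 79.0, 84.3 and 84.9 TPM and was among the least variable of the abundant members. It shared 36.4% of its 31-base sequences with other genes, mostly with Nans on the opposite strand.

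Trim26 had 59.4, 65.4 and 66.3 TPM, above all replicates of Trim27, a repressor of several signalling kinases, at 28.1, 33.5 and 31.7 TPM. Trim8, known as a binder of SOCS1, had 33.0, 26.6 and 20.2 TPM. Trim13, at the endoplasmic reticulum, and Trim56, which acts with STING, averaged 17.1 ± 1.32 and 16.6 ± 1.45 TPM (SD, n = 3). Trim23, which carries an ARF-type GTPase domain, Trim32 and Trim65, a ligase for the RNA sensor MDA5, were lower at 7.03, 4.07 and 3.40 TPM. The list held 2 genes that were not expressed. Trim38, known to act on TAB2 and TAB3, had 0.05, 0 and 0 TPM, and Trim31, known from MAVS and NLRP3 regulation, had 0 counts in every replicate.

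Genes of the pathways these ligases act on were present in the same libraries. All 16 of a list of sensors, adaptors, kinases and E2 enzymes were expressed, at means of 4.64 to 321 TPM. Of all protein-coding genes 44.5% were, and this list too was chosen with earlier results known. The RIG-I gene Ddx58 had 225, 201 and 197 TPM, and Ifih1, which encodes MDA5, had 197, 149 and 182 TPM. Tab2 and Tab3, whose products are targets of Trim30a, averaged 67.7 ± 3.30 and 4.64 ± 0.84 TPM. Mavs averaged 16.1 ± 2.09 TPM and Traf6 9.90 ± 0.99 TPM (SD, n = 3). Among the 4 TRIM proteins under other symbols, Pml averaged 56.7 ± 9.63 TPM, Mefv 53.4 ± 10.3 TPM and Mid1 41.1 ± 12.7 TPM, and Mid2 was at 0.02 TPM.

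Nuclear co-regulators of the family were expressed at intermediate levels. Trim28, the corepressor KAP1 that KRAB zinc finger proteins recruit, had 33.4, 45.5 and 42.9 TPM in replicates 1, 2 and 3. Trim33, which binds SMAD proteins, had 12.4, 13.0 and 11.3 TPM, and Trim24, a nuclear receptor cofactor, had 6.58, 5.17 and 3.94 TPM. Their ranges did not overlap. The testis gene Trim66, the other member of this subfamily, had 0.01 TPM on average. The excess of Trim28 over Trim33 depended on how length and transcripts were handled, at 2.59 ± 0.28 in the FASTQ-made TPM, 3.33 ± 0.57 in the alignment TPM and 1.25 ± 0.14 in the expected counts (SD, n = 3).

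Members known from other tissues were mostly not expressed, where 44.5% of all protein-coding genes were. These lists were likewise chosen with earlier results of these data known. Of 8 cytoskeletal and muscle members, 1 was expressed. The muscle genes Trim54, Trim55 and Trim63, which encode the MuRF ligases, had means that round to 0.01 TPM or less, as had the membrane repair gene Trim72. The exception was Trim36, a microtubule-binding member, at 15.5, 6.78 and 17.0 TPM. Replicate 2 was the low one. The erythroid genes Trim10 and Trim58 were at 0.02 TPM or less. Of 15 epithelial, germ line and early embryo members, 0 were expressed. A count of 0 in all replicates was found for 8 of them, against 34.8% of protein-coding genes. The highest of the 15 was Trim43c at 0.46, 0.27 and 0.02 TPM. Of 4 members with NHL repeats, Trim3 and Trim32 were expressed, at 13.5 and 4.07 TPM on average, and Trim71, the stem cell gene Lin41, was at 0. Of the 13 remaining members, 7 were expressed, led by Trim41 at 19.9, 37.8 and 24.99 TPM and by Trim44 at 17.5 ± 2.57 TPM.

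Levels around the threshold of 1 TPM were as follows. Trim59, the lowest expressed member, had 1.73, 1.07 and 1.70 TPM. Trim68 averaged 1.42 TPM but had 0.80 TPM in replicate 3, and Trim46 averaged 1.05 TPM from 2.53, 0.25 and 0.36 TPM. Neither counted as expressed. Just below a mean of 1 TPM lay Trim62 at 0.98 TPM, Trim45 at 0.67 TPM and Trim16 at 0.66 TPM. In all, 22 members had a mean of at least 10 TPM, 9 had a mean of 0.1 to under 1 TPM and 24 had a mean below 0.1 TPM. The shares of all protein-coding genes in these ranges were not computed, so these counts only describe the family.

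Replicates differed little for most expressed members. The SD of log2 TPM over replicates had a median of 0.21 in expressed members and of 0.18 in expressed protein-coding genes. The highest replicate over the lowest had a median of 1.34 in expressed members and of 1.27 in expressed protein-coding genes. In 26 of 33 the highest replicate was under 1.5 times the lowest, a share not computed for all genes. The highest was more than 2 times the lowest in 2 members, Trim30b and Trim36, and in 6.49% of expressed protein-coding genes. Trim30b was high in replicate 1 and Trim36 low in replicate 2, so the 2 did not share a deviating library. Replicate 2 was also the library with the high S100a8 and S100a9. The other neutrophil markers Ly6g, Mpo and Elane were at 0, 0.18 and 0 TPM there. The part of neutrophil RNA in the level of Trim36 was not tested. Replicate 1 had the lowest depth.

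The transcripts behind these levels were not all coding. In 28 of 33 expressed members the leading transcript was the same in both quantifications, against 90.4% of expressed protein-coding genes. In 15 it held over 75% of the gene's TPM in the alignment tables, against 55.0%. Trim30a was almost entirely Trim30a-201, at 93.3% ± 3.02 in the FASTQ-made tables and 98.6% ± 0.95 in the alignment tables. Trim30d was led by Trim30d-202, with 63.0% ± 2.78 in the FASTQ-made tables and 67.1% ± 3.08 in the alignment tables (SD, n = 3). The coding sequence annotated for Trim30d-202 has 347 codons and starts 150 codons into the 497 codons of Trim30d-201. That coding sequence therefore does not include the 90 bases shown for Trim30d.

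Trim30b was led by a retained-intron transcript, Trim30b-202, at 42.0% ± 3.42 in the FASTQ-made tables and 47.1% ± 4.21 in the alignment tables (SD, n = 3). Transcripts not annotated as protein coding made up 52.3% and 52.4% of its TPM in the same order. This share was over 25% in the alignment tables in 6 expressed members, Trim3, Trim14, Trim26, Trim28, Trim30b and Trim47, and in 17.2% of expressed protein-coding genes. For Trim28 it was 44.8% ± 3.55 in the FASTQ-made tables and 52.6% ± 7.59 in the alignment tables, but 13.1% ± 3.53 of its expected counts. Short transcripts weigh more in TPM than in counts, and the retained-intron transcript Trim28-203 is 565 bases long against 3245 in Trim28-201. Trim26 was led by a different transcript in each quantification, the coding Trim26-201 in the FASTQ-made tables and the non-coding Trim26-209 in the alignment tables.

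**Figure D4:**
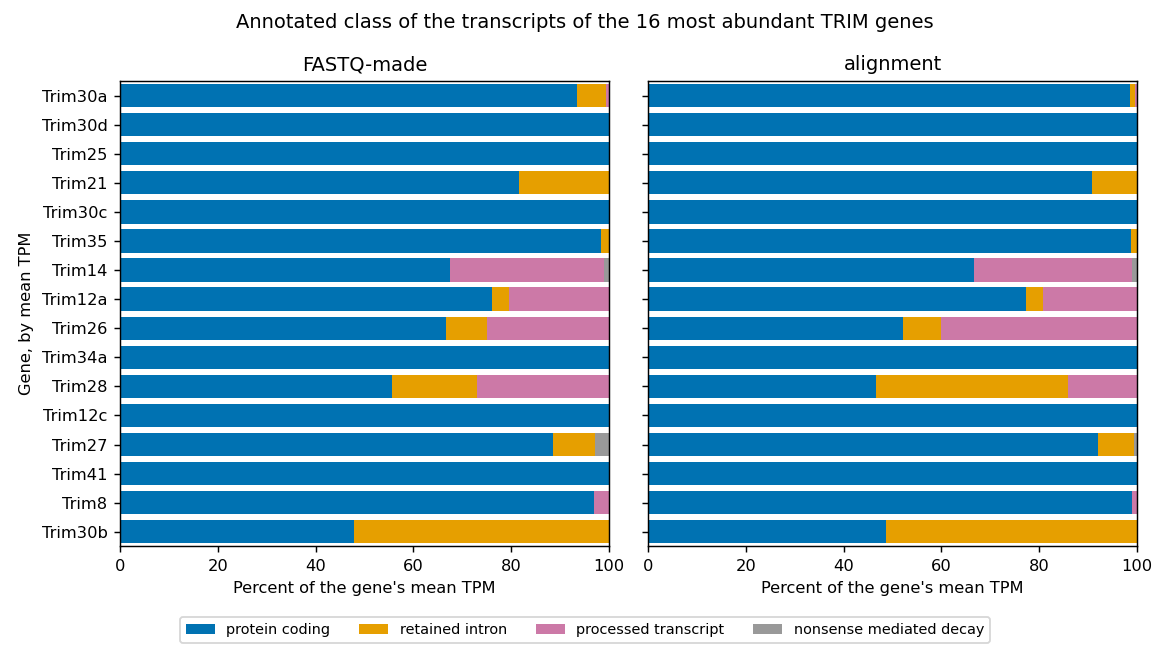
Percent of each gene's mean TPM in transcripts of each annotated class, for the 16 most abundant members, in the FASTQ-made tables (left) and the alignment tables (right). In both panels Trim30b and Trim28 have large non-coding shares, with coding transcripts alone in Trim30c, Trim30d, Trim25, Trim34a, Trim12c and Trim41.

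Overlapping genes add to the uncertainty, since nothing in the sources states whether counting used strand. Among expressed members, 13 of 33 overlap a gene on the opposite strand, against 44.0% of expressed protein-coding genes. A gene on the same strand overlaps 8, against 23.7%, and a gene on either strand 21, against 55.4%. Trim41 overlaps Rack1, the gene of a scaffold protein of the ribosome, at 273, 281 and 292 TPM on the opposite strand. Only 0.03% of the 31-base sequences of Trim41 also occur in Rack1, and 0.11% in any other gene. Gm16464, a processed pseudogene within Trim30d, had 5.53, 2.98 and 6.04 TPM in the FASTQ-made tables and 7.69, 3.26 and 5.54 TPM in the alignment tables, a small part of the level of Trim30d.

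Promoter windows of the members were searched for GAAA followed by any 2 bases and GAAA again, the spaced pair at the core of the interferon-stimulated response element that IRF and STAT complexes bind. Both strands were read in RefSeq windows (GRCm38.p6) from 250 bases before to 50 bases after each annotated start. The motif was in 9 of 53 members with a window, or 17.0%, and in 1079 of 27025 genes, or 3.99%. Among expressed members it was in 8 of 25, or 32%, and among members not expressed in 1 of 28, or 3.57%. Over all protein-coding genes the shares were 4.22% of 7829 expressed and 3.84% of 8696 not expressed. Several of these windows belong to copies with shared sequence and are not independent. Members with the motif had a median of 63.7 TPM and those without it one of 0.37 TPM. A match is a run of letters and not a shown binding site.

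**Figure D5:**
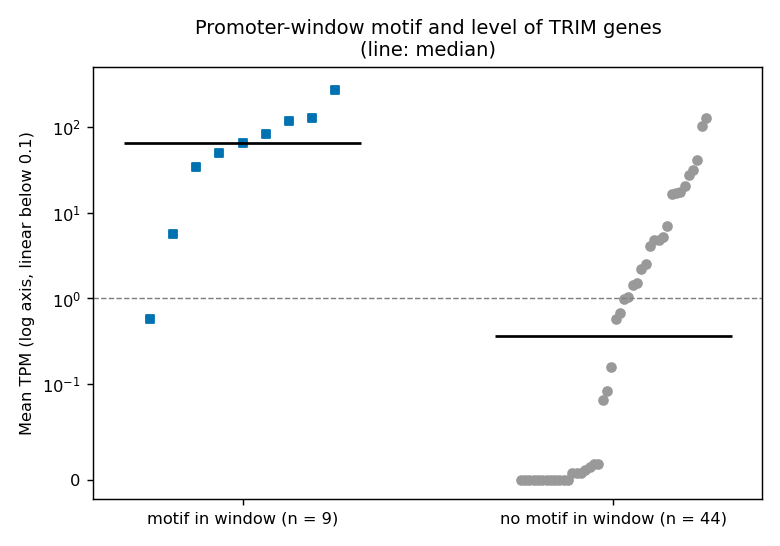
Mean TPM (log axis, linear below 0.1 TPM) of the 9 members with the motif in a promoter window and the 44 without, 1 point per gene, with the median as a line. Members with the motif run from 0.57 to 269 TPM and those without it from 0 to 125 TPM, so the sets overlap.

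Of the 8 copies, Trim30a, Trim30d, Trim12a, Trim12c and Trim34a had a match, and Trim30b, Trim30c and Trim34b had none in their windows. Trim5, Trim21, Trim26 and Trim2 had one as well. The 30-base surroundings are shown for the copies because their levels differ while their motifs are shared. They run 5′ to 3′ on the strand of the gene, with the motif, here read as its reverse complement, in capitals. Positions are chr7:104465210-104465239 for Trim30a, chr7:104507871-104507900 for Trim30d, chr7:104315466-104315495 for Trim12a, chr7:104353359-104353388 for Trim12c and chr7:104288136-104288165 for Trim5, all on the minus strand, and chr7:104244457-104244486 on the plus strand for Trim34a.
Trim30a: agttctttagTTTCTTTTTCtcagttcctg
Trim30d: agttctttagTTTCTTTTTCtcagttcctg
Trim12a: agagttgtggTTTCTGTTTCatttccagag
Trim12c: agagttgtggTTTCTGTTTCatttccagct
Trim5: agagttgtggTTTCTGTTTCatttccagag
Trim34a: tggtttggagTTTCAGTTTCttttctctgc
The stretches shown for Trim30a and Trim30d were the same in all 30 bases at levels of 269 and 127 TPM. Trim30a had a further match in another window, at chr7:104446104-104446133, which is not shown, and Trim30d had no other match. The stretches of Trim12a and Trim5 were also the same in all 30 bases, at levels of 81.6 and 5.70 TPM. Trim30c, at 103 TPM, and Trim25, at 125 TPM, were high with no match in their windows. Whether the motif bears on the level was not tested.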

How the data were processed

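Polyadenylated RNA was quantified in 3 samples of 1 group. Per the file headers, the authors deposited gene and transcript tables from alignments, with expected counts, TPM and posterior estimates, and transcript tables from FASTQ files with estimated counts and TPM. Per the labels and the deposited file lists, the build is mm10 with annotation M21. Which programs and versions made the tables, and whether strand was used, is not given in the sources used here. The percent of a gene's TPM per transcript was recomputed from the deposited TPM.

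Gene levels are deposited alignment TPM; FASTQ-made levels are sums over transcripts. Expressed means at least 1 TPM in all 3 replicates. Members, lists and the rule for named genes (chromosome 7 copies, the 15 most abundant, those over 2-fold between quantifications or replicates, and 3 on each side of 1 TPM) were chosen with earlier results of these data known. With 1 group no test between conditions was possible, so counts and medians stand beside all protein-coding genes. All counts outside annotated genes fell on the phiX174 entry, at 0.107% to 0.178% of the total. Shared 31-base sequences, coding identity (Biopython global alignment) and 2-fold counts were checked on simulated data. Expected counts were rounded for TMM (edgeR) and DESeq2 size factors. Promoters are from RefSeq; 53 of 68 members had a window. Tools were Python 3.11.15, numpy 2.4.6, pandas 2.3.3, Biopython 1.88, matplotlib 3.10.9, R 4.3.3, edgeR 4.0.16 and DESeq2 1.42.0. Alternatives left out a replicate or changed pseudocounts, filters, scaling and quantification; protein sequences were not used here.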

Additional observations from a re-analysis of the deposited data

Results flagged for a closer look

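Of the non-coding genes annotated over expressed members, 4 had more than 3 expected counts in every replicate, although they enter no comparison of levels. The others were at or under that floor in at least 1 replicate. Dleu2, opposite to Trim13, had a mean of 557 expected counts. Gm47248, antisense within Trim34a, had 2.66, 0 and 0 TPM in the FASTQ-made tables and 16.4, 23.6 and 15.4 TPM in the alignment tables, with a mean of 142 expected counts. The quantifications thus placed these reads differently in 3 of 3 replicates, and 21.4% of the 31-base sequences of Trim34a also occur in Gm47248. Gm16464, on the strand of Trim30d, had a mean of 96.4 expected counts. Gm15133, opposite to Trim12a, had 6.58, 5.82 and 7.69 TPM in the FASTQ-made tables and 2.32, 1.92 and 1.81 TPM in the alignment tables, with a mean of 19.3 expected counts. Where these reads came from was not tested.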

How the results depend on the processing

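Of 78 values recomputed under other settings, 70 stayed within the spread between replicates, or within 1.5 times for counts and for the median spread. The log2 ratios of FASTQ-made to alignment TPM of 7 of the 8 copies, as deposited, lie near 0 and gave no stable direction. Of the 48 recomputed values of all 8 copies, 14 had the other sign, none larger in size than 0.11. All 14 belonged to these 7 copies, and the sign of Trim34b did not change. The count of 33 expressed members was 36 at 0.5 TPM, 30 at 2 TPM, 33 in the FASTQ-made tables and 33 to 34 without 1 replicate. The median level of members, 1.11, was 0.31 with a pseudocount of 0.1 and 4.17 over members with a mean of at least 1 TPM. The first adds less to each value and the second drops the low members by construction. Without 1 replicate it was 1.04 to 1.17. The count of 0 members at least 2-fold apart became 1 without a filter on low values and 1 without replicate 3, in both cases Trim52, and stayed at 0 to 1 when each replicate was left out. The log2 ratio of Trim12a, −0.17, turned to 0.073 with counts scaled to their total and 0.057 relative to the median of all genes, an alternative added after seeing the data, and that of Trim34b, 0.92, was 0.26 with a pseudocount of 1. The share of the copies was 44.5% in expected counts, which are not divided by length. The median spread lay between 0.16 and 0.21 under all its alternatives. No paired analysis was possible because the samples form 1 group. Depth limits members below about 10 counts, such as Trim34b.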
